A study of Rattus norvegicus with 16 samples.

Results

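The type 2 cytokines Il4 and Il13, the alarmins Il33 and Tslp, the receptor chains Il4r, Il13ra1, Il13ra2 and Il1rl1, and the effector genes Retnla and Postn were followed in the lungs and the adipose tissue of Brown Norway rats with house dust mite (HDM) allergy. The genes were chosen by name, and a probe belonged to a gene when the RefSeq transcript given for it in the array design mapped to that symbol. Of the 10 listed genes, 9 had a probe, with 12 probes in all, out of 16678 gene symbols and 45598 probes measured. No probe was mapped to Tslp, which was not analyzed here. No member passed the test in either tissue. The nearest was Il33, which had a mean 1.40-fold higher in the lungs of HDM rats and did not overlap between the groups, but missed the adjusted threshold. The brightest probe of a gene in each tissue was used unless another probe is named.

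All animals were male Brown Norway rats, given as 7 weeks old, and the labels give no genetic modification. Sensitization and challenge ran over several weeks, and the age at which the tissues were taken is not stated. In the HDM group, 5 rats were injected under the skin every week with 45 µg of HDM in aluminum hydroxide. They were then challenged through the nose several times a week with 120 µg of HDM in saline. In the control group, 3 rats received aluminum hydroxide with saline and then saline through the nose, so that both groups had received the adjuvant. RNA from both tissues of each rat was measured on 16 one-color Agilent arrays, 1 per rat and tissue, and the depot from which the adipose tissue was taken is not given in the sources used here.

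IL-4 and IL-13 are made by type 2 helper T cells, innate lymphoid cells and other leukocytes, and both signal through receptors that contain IL-4Rα and activate STAT6. IL-33 and TSLP are alarmins, released by epithelial and stromal cells, and IL-33 is read by the receptor encoded by Il1rl1, which is produced in a membrane form and a soluble decoy form. In allergic lungs this axis is known for driving eosinophilia, mucus production and remodeling, and in adipose tissue IL-33 is known for sustaining type 2 lymphoid cells.

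The genes of both cytokines lie side by side. In the GRCr8 assembly, Il4 was annotated at chr10:38272003-38277549 and Il13 at chr10:38290926-38293483, with 13376 bases between them. The alarmin gene Il33 was at chr1:237115478-237149897 and its receptor gene Il1rl1 at chr9:50157326-50222888. STAT6 is known to bind the letters TTCNNNNGAA, so these were searched for in the 250 bases upstream of the start sites listed by RefSeq for GRCr8. This palindromic motif reads the same on both strands. Of the 10 listed members, 8 had an entry with 10 start sites in all, and Il13 and Il13ra2 had none. The motif was found upstream of 2 of the 10 start sites, those of Il4 and Il1rl1, and of 6.25% of all 33469 start sites. The pair is shown because it contains a cytokine and a receptor whose lung probes are described in detail here, with the motif in capitals and each sequence running 5′ to 3′ on the strand of the gene. The Il4 stretch lies at chr10:38277550-38277799 on the minus strand, and the Il1rl1 stretch lies at chr9:50203388-50203637 on the plus strand, inside the annotated span of Il1rl1.
Il4: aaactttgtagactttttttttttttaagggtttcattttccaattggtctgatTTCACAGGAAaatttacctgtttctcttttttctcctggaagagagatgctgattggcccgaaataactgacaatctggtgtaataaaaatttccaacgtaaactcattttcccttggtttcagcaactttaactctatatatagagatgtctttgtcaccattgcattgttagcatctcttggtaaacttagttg
Il1rl1: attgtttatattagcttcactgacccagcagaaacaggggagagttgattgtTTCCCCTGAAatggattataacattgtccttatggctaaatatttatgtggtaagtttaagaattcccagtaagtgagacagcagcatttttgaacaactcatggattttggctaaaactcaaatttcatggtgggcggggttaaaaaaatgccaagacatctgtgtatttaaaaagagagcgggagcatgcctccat
The motif began 196 bases before the Il4 start and 198 bases before the Il1rl1 start. With a spacing of 3, TTCNNNGAA, which other STAT proteins are known to bind, was found upstream of none of the 10 start sites and of 7.67% of all. These matches describe the letters only, and binding was not measured.

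Every value below is a log2 signal relative to the 75th percentile of the same array, so that a value of 0 lies at that percentile, and every difference is HDM minus control on the log2 scale. A spot is called well above background by the mark that Feature Extraction set. A probe was called changed when limma gave a Benjamini–Hochberg adjusted p below 0.05 over all 45598 probes and the fold change was above 1.5. The rats of a group are numbered as in the labels. Each array is tied by its label to its own rat, so the p-values measure the spread between these rats. In tissue RNA, fewer cells of a type and less RNA per cell cannot be told apart. Signals of different probes are not comparable as levels, so levels were compared between rats and tissues for the same probe, and for Il1rl1 the gap between its 2 probes was followed from rat to rat.

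In the lungs, 0 of the 9 members were called, whereas 0.855% of all probes were. By an unadjusted limma p below 0.05, 3 of 9 members passed, as did 10.2% of all probes. These were Il33, Retnla and Postn, all of them outside the 2 cytokine genes. Past 1.5-fold, without a test, there were 2 of 9 members, Il4 and Retnla, beside 9.47% of all probes. The HDM and control rats did not overlap in 1 of 9 members, Il33, and in 9.61% of the probes with a value on every array. The median difference of the 9 members was 0.15, beside 0.0028 for all probes.

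Il4 was measured above background in the lungs of all 8 rats. In HDM rats 1 to 5 its lung level was -3.83, -4.33, -3.49, -4.33 and -4.61, and in control rats 1 to 3 it was -4.14, -5.21 and -5.26. Control rat 1 lay among the HDM rats, while control rats 2 and 3 lay below all of them. The mean was -4.12 ± 0.45 in HDM rats (SD, n = 5) and -4.87 ± 0.63 in control rats (SD, n = 3). The difference was 0.75 ± 0.34 (SE, 95% interval -0.03 to 1.54), or 1.68-fold, with a limma adjusted p of 0.521 and a two-sided exact permutation p of 0.125. The Il4 difference was 0.15 after normexp background correction with quantile normalization and 0.26 when blocked on the slide row. Its background-subtracted signals were low, at 11.8 and 10.1 in control rats 2 and 3, within the 7.4 to 14.5 of Il13 in the lungs. The smallest p that the exact test can give with 5 rats against 3 is 0.0179.

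Il13 stayed near the background of the lung arrays. Its spot was well above background in 0 of 5 HDM rats and in 2 of 3 control rats. The lung levels were -5.74, -4.96, -5.58, -5.64 and -5.58 in HDM rats 1 to 5 and -5.04, -5.75 and -4.74 in control rats 1 to 3. HDM rat 2 and control rats 1 and 3 lay above the others, so the groups overlapped. The mean was -5.50 in HDM rats and -5.18 in control rats, and no fold change is given because the HDM value is only a bound and 1 control spot was dim too. The difference did not pass (limma adjusted p = 0.834). The means of the neighboring cytokine genes differed in opposite directions, but that of Il13 rests on spots near background and gives no measured direction. Neither gene passed the test.

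Il33, which encodes a nuclear cytokine released from damaged barrier cells, was well above background in all 8 lungs. Its level was 4.50, 4.50, 4.35, 4.71 and 4.29 in the lungs of HDM rats 1 to 5. In control rats 1 to 3 it was 3.97, 4.01 and 3.99. All 5 HDM rats lay above all 3 control rats, and the control rats lay close together. The difference was 0.48 ± 0.12 (SE, 95% interval 0.21 to 0.76), or 1.40-fold, which is under the fold threshold. The limma adjusted p was 0.150 and the exact permutation p was 0.0179, the smallest this design allows. HDM rats 1 to 4 lay in one row of the slide, and HDM rat 5 lay in the other row with the 3 control rats. With the row as a block the difference was 0.30 (limma adjusted p = 0.842), which is the difference between HDM rat 5 and the mean of the 3 control rats in its row.

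Among 11944 genes well above background on all 8 lung arrays, the 3 whose levels followed Il33 most closely over the 8 lungs were Arsi, Gata5 and Scnm1. The Pearson r over the 8 arrays was 0.988 for Arsi, 0.986 for Gata5 and 0.981 for Scnm1. These correlations describe 8 arrays that share the group difference, and they carry no test. The lung difference was 0.72 for Arsi, 0.72 for Gata5 and 0.20 for Scnm1, and none of these passed (limma adjusted p = 0.0824, 0.0616 and 0.505).

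**Figure D1:**
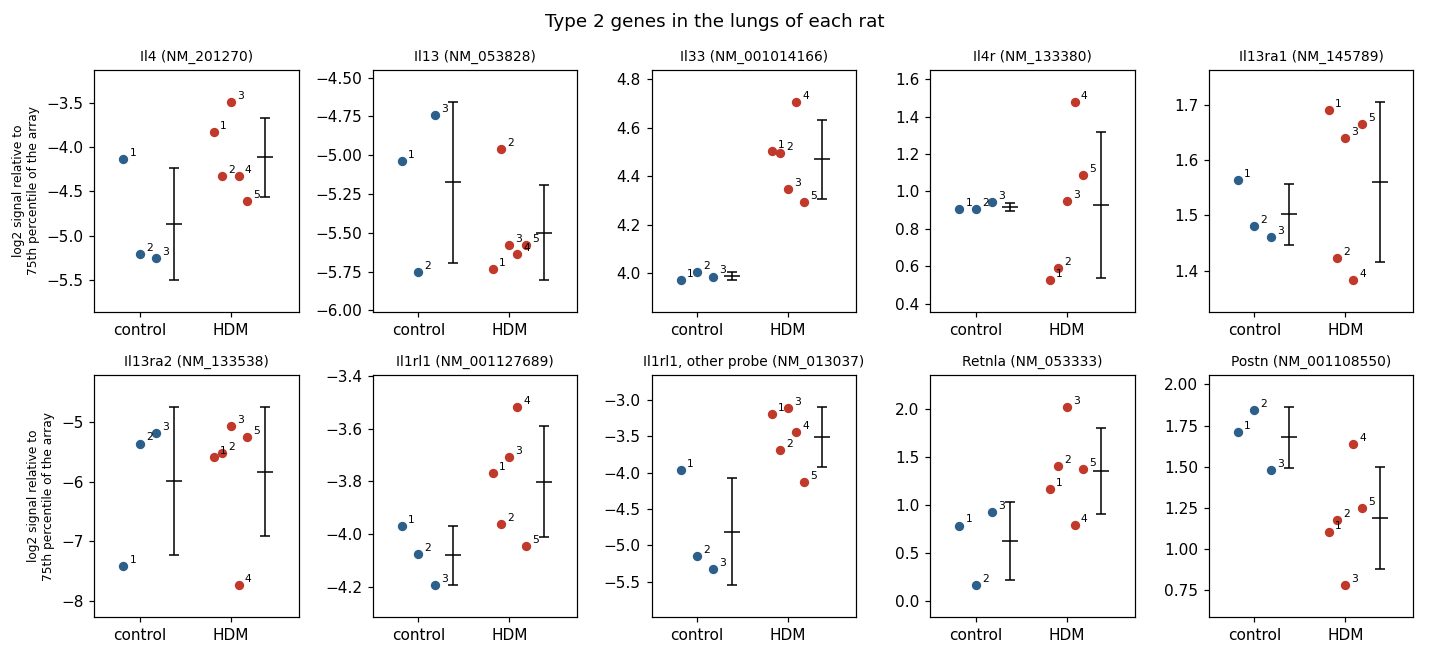
Log2 signal of each member in the lungs, relative to the 75th percentile of the array, with 1 numbered point per rat (blue, 3 control rats; red, 5 HDM rats), the RefSeq transcript of the probe in parentheses, and bars for the mean and SD; each panel has its own axis. Il33 has all 5 HDM rats between 4.29 and 4.71, above the control rats at 3.97 to 4.01, and in every other panel the groups overlap.

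The receptor chains shared by IL-4 and IL-13 differed little on average in the lungs. Il4r, the signaling chain of both receptors, was at 0.53, 0.59, 0.95, 1.48 and 1.09 in HDM rats 1 to 5 and at 0.90, 0.91 and 0.94 in control rats 1 to 3. HDM rats 1 and 2 lay below all control rats and the other 3 lay above them. The difference was 0.01 (95% interval -0.50 to 0.51, limma adjusted p = 1.00).

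Il13ra1, which pairs with IL-4Rα to read IL-13, ranged in the lungs from 1.38 to 1.69 in HDM rats and from 1.46 to 1.56 in control rats. Here 3 HDM rats lay above and 2 below all control rats. The difference was 0.06 (95% interval -0.21 to 0.32, limma adjusted p = 0.980). A second Il13ra1 probe, with the same transcript, gave a difference of -0.31 (limma adjusted p = 0.629), so its 2 probes disagreed in sign.

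Il13ra2, the decoy receptor of IL-13, was dim in the lungs. Its levels were -5.59, -5.52, -5.08, -7.73 and -5.26 in HDM rats 1 to 5 and -7.41, -5.36 and -5.19 in control rats 1 to 3. The spot was well above background in 3 HDM rats and 2 control rats, and HDM rat 4 and control rat 1 lay below the other 6 rats. The difference was 0.15 (95% interval -1.53 to 1.83, limma adjusted p = 1.00). On none of the lung arrays was the second Il13ra2 probe well above background.

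Il1rl1 had probes for 2 transcripts, and which receptor form each of them reads was not determined. The brighter one in the lungs, for NM_001127689, was at -3.77, -3.96, -3.71, -3.52 and -4.05 in HDM rats 1 to 5 and at -3.97, -4.08 and -4.19 in control rats 1 to 3. All HDM rats but rat 5 lay above all control rats. The difference was 0.28 ± 0.14 (SE, 95% interval -0.05 to 0.61), with a limma adjusted p of 0.604 and an exact permutation p of 0.0714.

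The other Il1rl1 probe, for NM_013037, was at -3.19, -3.69, -3.11, -3.44 and -4.13 in the lungs of HDM rats 1 to 5 and at -3.97, -5.14 and -5.33 in control rats 1 to 3. Again HDM rats 1 to 4 lay above all control rats, and HDM rat 5 lay below control rat 1. The difference was 1.30 ± 0.36 (SE, 95% interval 0.48 to 2.12), or 2.46-fold, with a limma adjusted p of 0.197 and an exact permutation p of 0.0357. This was the largest lung difference among the 12 member probes, and it did not pass the adjusted test. The spot was well above background in 5 of 5 HDM rats and in 2 of 3 control rats.

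Within each lung array, the NM_013037 probe minus the NM_001127689 probe was 0.58, 0.27, 0.60, 0.07 and -0.09 in HDM rats 1 to 5 and -0.001, -1.07 and -1.13 in control rats 1 to 3. Control rats 2 and 3 lay below all others, and control rat 1 lay among the HDM rats. The mean gap was 0.29 in HDM rats and -0.73 in control rats. This is a description with no test, since the pair was looked at after the values of both probes were seen, and the NM_013037 spot of 1 control rat was not well above background.

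The effector genes had mean differences of opposite sign in the lungs. Retnla, which encodes a resistin-like protein of alternatively activated macrophages and airway epithelium, was at 1.16, 1.41, 2.02, 0.79 and 1.38 in HDM rats 1 to 5 and at 0.79, 0.17 and 0.92 in control rats 1 to 3. HDM rat 4 lay below control rat 3 and the other 4 HDM rats lay above all control rats. The difference was 0.73 ± 0.29 (SE, 95% interval 0.06 to 1.39), or 1.66-fold, with a limma adjusted p of 0.430 and an exact permutation p of 0.0536.

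Postn, which encodes the matrix protein periostin, was at 1.10, 1.17, 0.78, 1.64 and 1.25 in HDM rats 1 to 5. In control rats 1 to 3 it was at 1.71, 1.84 and 1.48. HDM rat 4 lay within the control range and the other 4 HDM rats lay below it. The difference was -0.49 ± 0.19 (SE, 95% interval -0.94 to -0.04), with a limma adjusted p of 0.428 and an exact permutation p of 0.0714. The 6 fibroblast marker genes also had lower means in HDM lungs in 6 of 6 cases, with a median difference of -0.28 and none called, and their summed level was 5.45 to 6.62 in HDM rats and 6.55 to 6.78 in control rats. Lower means were not particular to fibroblast markers, since 0 of 7 lung epithelium markers and 1 of 4 endothelium markers had a higher mean in HDM lungs. The part of fibroblasts in the Postn value was not tested.

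Set by role, the median lung difference was 0.21 for the 2 cytokines, 0.48 for the alarmin, 0.10 for the 4 receptor chains and 0.12 for the 2 effectors. Within the cytokines and within the effectors 1 gene had a higher and 1 a lower mean in HDM rats, whereas all 4 receptor chains had a higher mean, although the signs of Il4r, Il13ra1 and Il13ra2 changed under other scalings, blocks, probes or sets of rats. The lower cytokine, Il13, was near background, so its sign and the cytokine median are not well measured. With 0 genes called in each role, these medians are descriptions.

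Neutrophil and eosinophil markers moved with the group in the same lungs. The summed level of 5 neutrophil markers was 6.94 to 8.07 in HDM rats and 2.99 to 3.32 in control rats, and 5 of 5 of them were called higher. For 5 eosinophil markers the summed level was -0.26 to 1.31 in HDM rats and -1.85 to -1.02 in control rats, with 0 called, and for 6 macrophage markers it was 3.23 to 3.40 against 3.00 to 3.18, with 0 called. Only 3 of the 6 macrophage markers had a higher mean in HDM rats, and their median difference was -0.01, so this list had no common direction. The summed levels of T-cell, mast-cell and lung epithelium markers overlapped between the groups. The 3 measured markers of type 2 lymphoid cells, Gata3, Ptgdr2 and Ccr4, gave -1.88 to -0.85 in HDM rats and -1.55 to -1.42 in control rats. Only 1 of these 3 markers, Gata3, had a higher mean in HDM rats, and their median difference was -0.55. Of the 3, 1 was well above background on all lung arrays and 1 on none, so this median is not well measured. The part of these cells in the member values was not tested.

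In adipose tissue, 0 of the 9 members were called, and 0% of all probes were. The smallest adjusted p of any adipose probe was 0.0853. By an unadjusted limma p below 0.05, 0 of 9 members passed, beside 9.90% of all probes. Past 1.5-fold, without a test, there were 3 of 9 members, namely Il13, Il13ra2 and Il1rl1, beside 24.0% of all probes. Il13 is counted by its values as they stand, although most of its spots were dim and it has no measured fold change. For Il1rl1 this holds for the NM_013037 probe, whereas the other probe differed by 1.25-fold. The groups did not overlap in 0 of 9 members and in 6.26% of the probes with a value on every array. The median difference of the 9 members was -0.09, against a median of -0.15 for all adipose probes.

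The adipose samples of HDM rat 1 and control rat 1 stood apart. The summed level of 8 epididymis genes was 11.8 and 12.1 in them, 4.84 in control rat 3, 1.96 in HDM rat 5 and between -2.05 and -0.95 in the other 4 adipose samples. Defining adipocyte markers were high in all 8 adipose samples, with a summed level of 9.38 to 10.4. Each member that moved with the epididymis genes is therefore given with and without those 2 rats, an alternative added after the values were seen.

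Neither cytokine was measurable throughout adipose tissue. The Il4 spot was not well above background in any of the 8 adipose samples, so no fold change is given. The Il13 spot was well above background in 0 of 5 HDM rats and in 1 of 3 control rats. Its adipose levels were -5.63, -5.94, -4.64, -6.17 and -4.69 in HDM rats 1 to 5 and -4.04, -5.03 and -4.30 in control rats 1 to 3. The groups overlapped, and HDM rats 1, 2 and 4 lay below all control rats. The mean was -5.41 in HDM rats and -4.46 in control rats, no fold change is given because most spots were dim in both groups, and the difference did not pass (limma adjusted p = 0.522).

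Il33 was well above background in all 8 adipose samples. It was at 2.69, 3.89, 3.75, 4.07 and 3.73 in HDM rats 1 to 5 and at 2.97, 4.09 and 4.10 in control rats 1 to 3. Rat 1 of each group, the samples with high epididymis genes, had the lowest value of its group. The difference was -0.09 (95% interval -0.99 to 0.81, limma adjusted p = 0.944) and without those 2 rats it was -0.23, with 4 HDM rats between 3.73 and 4.07 and 2 control rats at 4.09 and 4.10. The interval of the adipose Il33 difference thus included the lung difference of 0.48.

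Il4r differed by -0.07 in adipose tissue (95% interval -0.54 to 0.40, limma adjusted p = 0.911), with HDM rats between -1.08 and -0.34 and control rats between -0.60 and -0.50. Il13ra1 was at -0.22, 0.70, 0.71, 1.05 and 0.84 in HDM rats 1 to 5 and at -0.12, 0.69 and 0.58 in control rats 1 to 3. As for Il33, rat 1 of each group was the lowest. The Il13ra1 difference was 0.23 (95% interval -0.52 to 0.98, limma adjusted p = 0.820), and 0.19 without those 2 rats. The second Il13ra1 probe gave -0.10 (limma adjusted p = 0.907).

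The decoy receptor Il13ra2 varied widely between the adipose samples of both groups. It was at 1.70, -3.85, -3.14, -2.73 and -4.09 in HDM rats 1 to 5 and at 0.24, -1.92 and -3.04 in control rats 1 to 3. The highest values of both groups were those of rat 1, and HDM rat 1 lay 5.15 above the mean of the other 4 HDM rats. The difference was -0.85 (95% interval -4.02 to 2.32, limma adjusted p = 0.835) with all rats and -0.97 without rat 1 of each group, where HDM rats lay between -4.09 and -2.73 and the 2 control rats at -1.92 and -3.04. It was -1.88 without HDM rat 1 alone, -1.58 without control rat 3 alone and, with the opposite sign, 0.06 without control rat 1 alone. The second Il13ra2 probe was well above background in 1 rat of each group only, with levels of 0.08 in HDM rat 1 and -1.35 in control rat 1 against -5.77 to -3.75 in the other 6 samples.

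For Il1rl1 the probe with the higher mean over the adipose samples was the one for NM_013037, and that mean includes the high values of rat 1 of both groups. Its levels were 1.48, -4.52, -3.60, -3.02 and -3.77 in HDM rats 1 to 5 and -1.55, -6.28 and -3.95 in control rats 1 to 3. Again rat 1 was the highest of each group, with HDM rat 1 lying 5.20 above the mean of the other 4 HDM rats. The difference was 1.24 ± 1.51 (SE, 95% interval -2.25 to 4.73, limma adjusted p = 0.820) and 1.38 without both rats. The spot was well above background in 4 of 5 HDM rats and in 2 of 3 control rats. Control rat 2, at -6.28, lay below -4.28, the lowest signal well above background on its array. The 1.38 rests on this rat and 1 other control rat, so its size is not well measured. Single rats moved the difference further, to 0.20 without HDM rat 1, 2.43 without control rat 1 and 0.06 without control rat 2. The NM_001127689 probe was at -2.62, -4.48, -4.20, -2.95 and -3.15 in HDM rats 1 to 5 and at -4.16, -4.17 and -3.06 in control rats 1 to 3. It differed by 0.32 (95% interval -0.83 to 1.47, limma adjusted p = 0.830) and was well above background in 4 HDM rats and 1 control rat. Control rat 1 was not raised with this probe, although it was the highest control rat with the other one. Within the array, the NM_013037 probe minus the NM_001127689 probe was 4.10 in HDM rat 1 and 2.60 in control rat 1, and between -2.10 and 0.59 in the other 6 adipose samples. The part of epididymis tissue in the Il13ra2, Il1rl1, Il33 and Il13ra1 values of rat 1 was not tested beyond leaving these rats out.

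**Figure D2:**
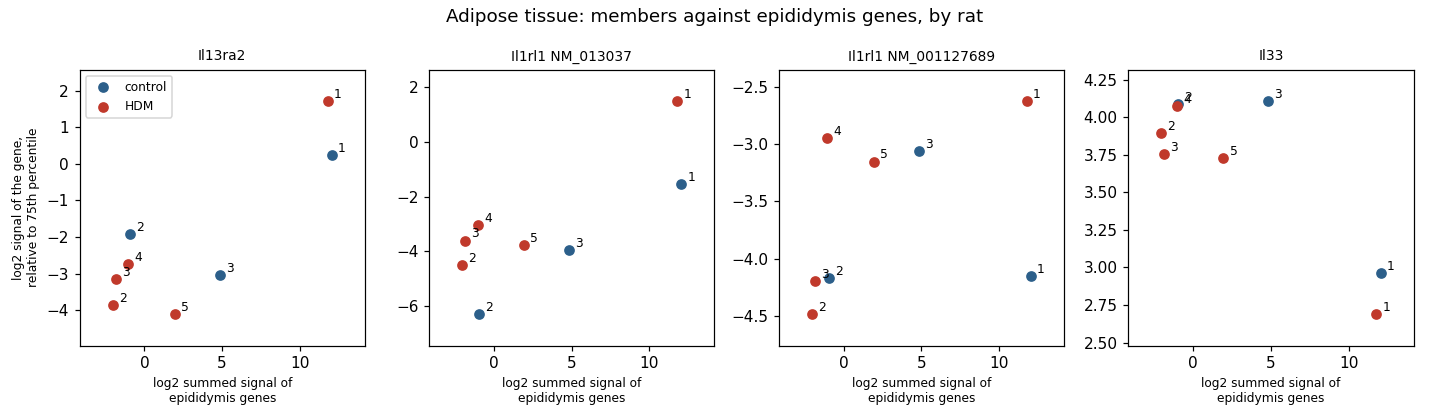
Log2 signal of Il13ra2, both Il1rl1 probes and Il33 in adipose tissue (vertical axes, relative to the 75th percentile of the array, each panel on its own scale) against the log2 summed signal of 8 epididymis genes, with 1 numbered point per rat (blue, 3 control rats; red, 5 HDM rats). Rat 1 of both groups lies at 11.8 and 12.1 on the horizontal axis, with the highest Il13ra2 and Il1rl1 NM_013037 values of all samples and the lowest Il33 values.

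Of the effectors, Retnla was not well above background in any of the 8 adipose samples, with levels between -6.50 and -4.94, and no fold change is given. Postn was at 1.5, 1.36, 2.55, 2.54 and 2.84 in HDM rats 1 to 5 and at 1.84, 2.78 and 1.82 in control rats 1 to 3. HDM rats 1 and 2 lay below all control rats and HDM rat 5 above them. The difference was 0.01 (95% interval -0.97 to 0.99, limma adjusted p = 0.995).

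**Figure D3:**
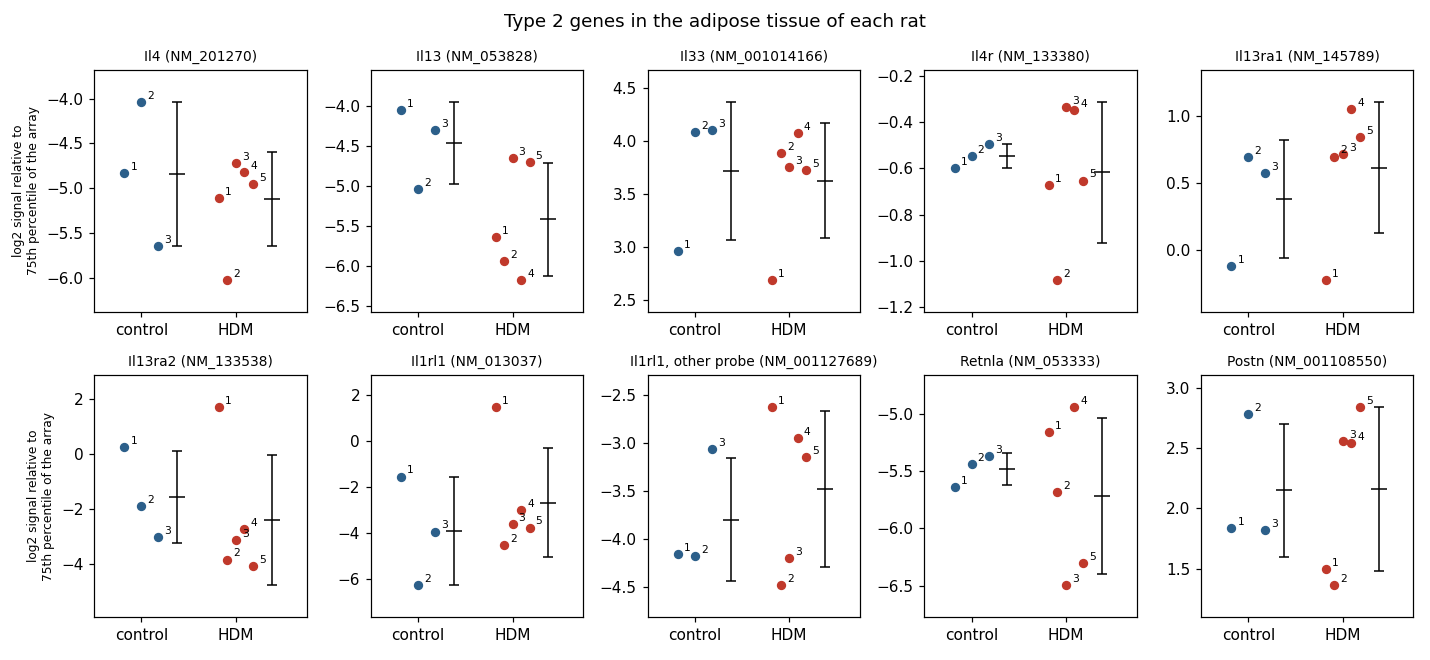
Log2 signal of each member in adipose tissue, relative to the 75th percentile of the array, with 1 numbered point per rat (blue, 3 control rats; red, 5 HDM rats), the RefSeq transcript of the probe in parentheses, and bars for the mean and SD; each panel has its own axis. The groups overlap in every panel, and rat 1 of both groups stands apart for Il33, Il13ra1, Il13ra2 and the NM_013037 probe of Il1rl1.

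Whether the change with HDM differed between the tissues was tested on the lung minus adipose difference of each rat. None of the 9 members was called in this comparison, where 0.00219% of all probes were. All member adjusted p-values from limma were 0.665 or higher. For Il33, measured on all arrays of both tissues, the lung change minus the adipose change was 0.57 (95% interval -0.35 to 1.49, limma adjusted p = 0.741). For Il4 and Retnla no size is given, because their spots were not well above background in any adipose sample.

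Between tissues, 5 of the 9 members had the same order of level in every rat. The share of all probes with the same order in every rat was not computed, so this count only describes the members. Relative to the 75th percentile of each array, Il4r, Il13ra1 and Retnla were higher in the lungs than in the adipose tissue of 8 of 8 rats, whereas Postn and Il13ra2 were lower in the lungs of 8 of 8 rats. Il33 was higher in the lungs of 6 of 8 rats. The lung minus adipose difference of Retnla was between 5.61 and 8.51, where the adipose side is at background. For Il4r it was between 1.20 and 1.83, for Il13ra1 between 0.33 and 1.91, for Postn between -1.77 and -0.13 and for Il13ra2 between -7.66 and -1.16. The lung spot of Il13ra2 was well above background in only 3 HDM rats and 2 control rats. Its lowest value is that of control rat 1, with a lung level of -7.41 and an adipose sample high in epididymis genes. The lung arrays were all on one slide and the adipose arrays on another, so that tissue and slide cannot be told apart, and these levels carry no test.

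**Figure D4:**
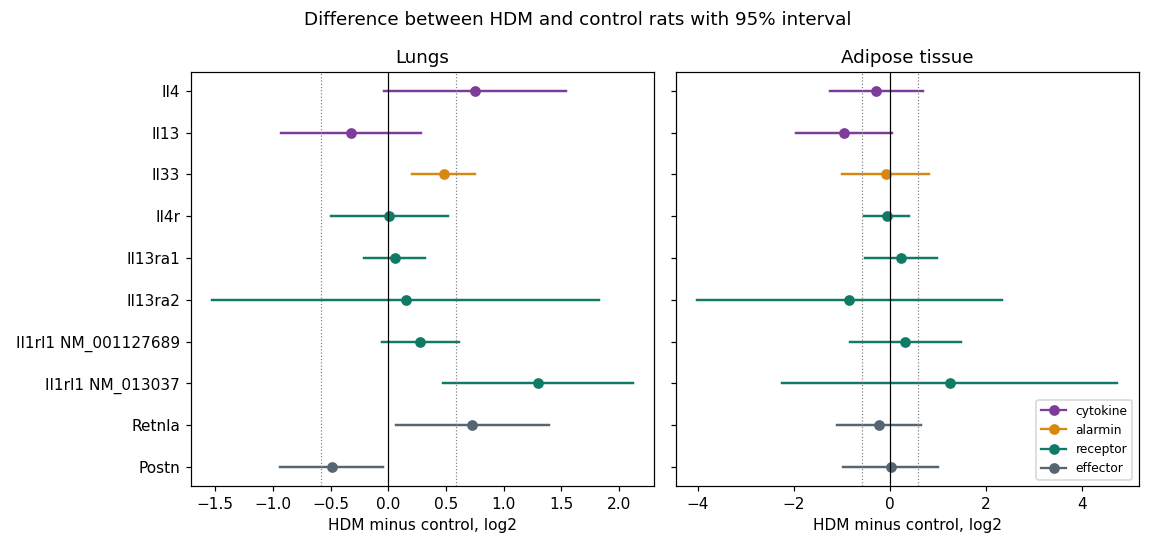
Difference between HDM and control rats (log2, horizontal axes, which differ between the panels) for each member in the lungs and in adipose tissue, with points for the estimate and lines for its 95% interval from limma, colored by role; dotted lines mark the 1.5-fold threshold. In the lungs the intervals of Il33, Il1rl1 NM_013037, Retnla and Postn exclude 0 without adjustment, and in adipose tissue all intervals include 0.

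Other genes of the type 2 pathway were read from a list of 75, of which 68 had a probe. In the lungs 3 of 68 were called higher and 0 lower, beside 0.855% of all probes called in either direction, and the median difference of the list was 0.11. Chi3l1, which encodes a chitinase-like protein induced in type 2 and other inflammation, was at 1.81, 1.76, 1.71, 1.98 and 1.95 in HDM rats 1 to 5 and at 0.50, 0.34 and 0.68 in control rats 1 to 3. The groups did not overlap, and Chi3l1 rose by 1.33 ± 0.12 (SE), or 2.52-fold (limma adjusted p = 0.00375). Socs3, a feedback inhibitor of JAK and STAT signaling, was between 3.47 and 4.28 in HDM rats and between 2.66 and 2.90 in control rats, and rose by 1.18 ± 0.19 (SE), or 2.27-fold (limma adjusted p = 0.0369). Jak3, the kinase bound by the common γ chain, was between 2.67 and 2.82 in HDM rats and between 1.97 and 2.17 in control rats, and rose by 0.64 ± 0.10 (SE), or 1.55-fold (limma adjusted p = 0.0332). The neutrophil markers rose in the same lungs, as given above, and their part in these 3 values was not tested. Blocked on the slide row, none of the 3 calls was kept, although the differences were of similar size, at 1.44 for Chi3l1, 1.38 for Socs3 and 0.61 for Jak3 (limma adjusted p = 0.118, 0.315 and 0.457). The joint limma fit of both tissues kept none of the 3 either (adjusted p = 0.309, 0.309 and 0.220), with the same differences as the separate fits. When each rat was left out in turn Chi3l1 was called in 8 of 8 fits while Socs3 was called only without HDM rat 1 and Jak3 only without HDM rat 3. The adjusted p ranged in these 8 limma fits from 0.0239 to 0.152 for Socs3 and from 0.0490 to 0.147 for Jak3.

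The remaining pathway genes did not pass in the lungs. Among the cytokines the values of genes well above background ran from -0.85 for Areg, an epidermal growth factor family ligand, to 0.29 for Il5, the eosinophil growth factor. With dim spots included, the highest was Il9 at 0.51 (limma adjusted p = 0.844), well above background in 3 HDM rats and 0 control rats. Among receptor chains well above background the values ran from -0.40 for Il7r, which pairs with the TSLP receptor, to 0.32 for Il10ra. With dim spots included, the 11 measured chains ran from -0.47 to 0.75. The highest was Csf2rb (limma adjusted p = 0.136), well above background in 4 HDM rats and 0 control rats. The groups did not overlap in 1 chain with higher values in HDM rats, Csf2rb, and in 1 with lower values, Il7r. Beside these stand 9.61% of all lung probes with a value on every array, in either direction, so the count only describes the chains. In the signal chain below the IL-4 receptors the lowest was Stat6 itself, at -0.17 (limma adjusted p = 0.923), and below IL-1RL1 they ran from -0.86 for the NF-κB inhibitor gene Nfkbia (limma adjusted p = 0.0767) to 0.33 for the adaptor gene Myd88. Of the genes known to be induced by IL-4 or IL-13 the lowest was the macrophage lectin gene Clec10a, at -0.49 (limma adjusted p = 0.158), and 1 of 22 was called, Chi3l1. The regulators of type 2 lymphoid cells that were well above background ran from -0.12 for Maf to 0.27 for Gata3. Over all 7 measured regulators, dim spots included, the lowest difference was -0.56, the median was -0.07 and 3 had a higher mean in HDM rats.

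In adipose tissue 0 of the 68 pathway genes were called, with a median difference of -0.09. Of the receptor chains well above background throughout, Il1rap, the coreceptor of the IL-33 receptor, had the lowest difference at -0.05 and Il17ra the highest at 0.35. In the signal chain below the IL-4 receptors the values ran from -0.34 for Stat6 to 1.17 for Cish (limma adjusted p = 0.611 and 0.681). Below IL-1RL1 they ran from -0.22 for Nfkbia to 0.41 for Myd88, among the induced genes from -0.66 for Tgm2 to 0.73 for Clec10a, and among the regulators from -0.51 for Bcl6 to 0.46 for Maf. These ranges cover only genes well above background in all 8 adipose samples. No cytokine of this list was well above background in all 8 adipose samples. Jak3, called in the lungs, was between 1.11 and 1.80 in HDM rats and between 0.14 and 0.79 in control rats in adipose tissue, without overlap, and its difference of 0.99 did not pass (limma adjusted p = 0.289). The summed level of the neutrophil markers in adipose tissue was 1.78 to 3.15 in HDM rats and -1.06 to 0.24 in control rats, with 0 of 5 called.

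**Figure D5:**
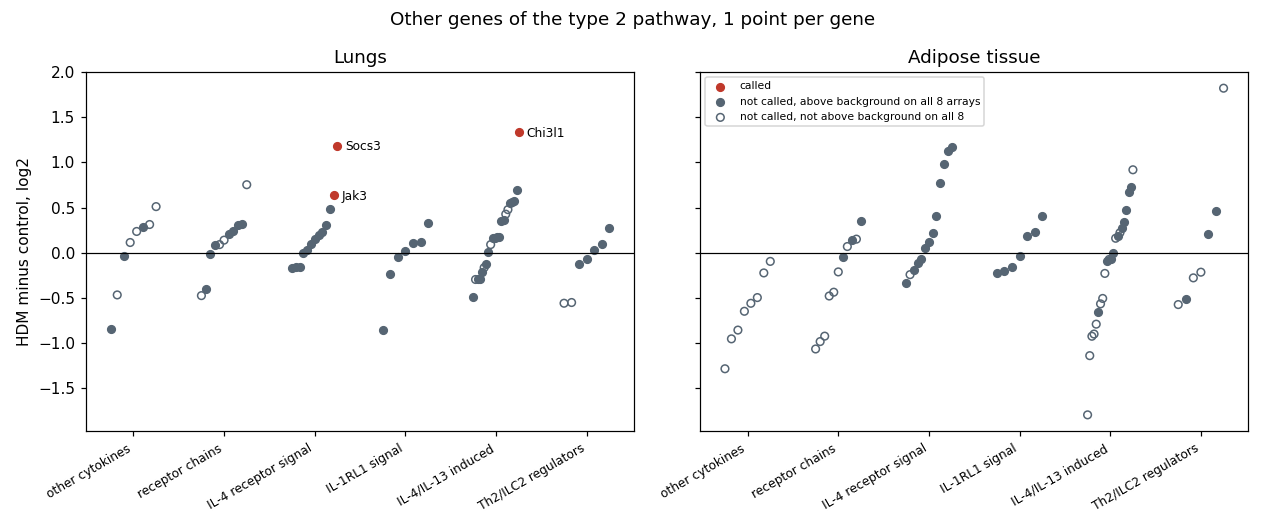
Difference between HDM and control rats (log2, vertical axis shared by both panels) for the 68 measured genes of the type 2 pathway list, 1 point per gene, by role; red points were called, filled points were well above background on all 8 arrays of the tissue and open points were not. Chi3l1, Socs3 and Jak3 are the 3 called genes in the lungs, and no point is red in adipose tissue.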

How the data were processed

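For each array the authors deposited linear spot intensities from Feature Extraction 12.0.3.1 (Agilent), background-subtracted and detrended, without normalization between arrays, and with other deposited marks for outlier spots and spots well above background. A second deposited file holds log2 values, which the authors made in GeneSpring GX, in which 39 cells held no number. Its steps are not given in the sources used here. Of its cells, 99.97% in lung and 99.85% in adipose tissue lay within 0.1 of the values computed here after centering each probe, and it was used as an alternative.

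Control probes and outlier spots were left out, log2 values of replicate spots were averaged per probe, and each array was shifted by its 75th percentile. This percentile was a signal of 376 to 488 in lung and 111 to 240 in adipose tissue, with 62.2% to 68.8% and 51.0% to 60.3% of probes well above background. The number of arrays limits the precision. Correlations between replicates were 0.980 to 0.990 in lung and 0.901 to 0.984 in adipose tissue. Symbols came from RefSeq accessions matched to 47357 rat genes of GRCr8, and 21229 probes had one.

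HDM and control rats were compared in each tissue with limma 3.58.1 (lmFit, eBayes) in R 4.3.3, adjusted by Benjamini–Hochberg over 45598 probes, and the tissues by limma on the difference within each rat. The code was tested on simulated data. Exact permutation tests were two-sided over the 56 splits. Members, lists and tests were chosen with earlier results of these data known, so no list was tested as a set. The genes named beside the members are the called pathway genes, the highest and lowest of each role among probes well above background on all arrays of the tissue, and the 3 closest in pattern to the member with the smallest adjusted p in lung. Jak3 in adipose tissue is given beside its lung value, and Csf2rb and Il9 in lung because each had the largest difference of its role. Stretches upstream of genes are from RefSeq, GRCr8. Python 3.11.15 with matplotlib 3.10.9 was used for plotting.

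Alternatives were the methods' t-test, other orders of filter and adjustment, other normalizations, the deposited table, a filter on dim probes, array weights, other probes, a joint fit, the replicate number or slide row as a block, and each rat left out. Leaving out rat 1 of both groups and following the gap between the Il1rl1 probes were added after seeing the data.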

Additional observations from a re-analysis of the deposited data

Results flagged for a closer look

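Of the 18 sets of 5 HDM values, 1 per measured member and tissue, 6 held a value far from the other 4 by Dixon's criterion, which chance meets in about 1 in 20 sets; control sets of 3 rats were not examined. In the lungs these were Il13 in HDM rat 2, at -4.96 against -5.58 for the nearest HDM rat, and Il13ra2 in HDM rat 4, at -7.73 against -5.59. Il13 was not well above background in any HDM lung. The other 4 were all in the adipose sample of HDM rat 1, which carried high epididymis genes. Its Il33 was 2.69 against 3.73 for the nearest HDM rat, and its Il13ra1 was -0.22 against 0.70. Its Il13ra2 was 1.70 against -2.73, and its Il1rl1, read by the NM_013037 probe, was 1.48 against -3.02. These 4 values come from 1 sample and are not independent of each other.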

How the results depend on the processing

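The number of members called was 0 in lung under 24 alternatives, 0 in adipose tissue under 24 and 0 for the difference between the tissues under 23. Across all of them, 0 of 619 member values were called, and 57 had another sign than the main value, 12 of them in lung, 28 in adipose tissue and 17 in the difference between the tissues. In lung the differences of Il4, Il13, Il33, Il1rl1, Retnla and Postn kept their sign under every alternative that gave a value. That of Il4 ranged from 0.15 to 1.12 and that of Il33 from 0.30 to 0.53. For Il33 the limma adjusted p was 0.0473 when arrays were weighted and 0.0490 when dim probes were removed, both with a fold change under 1.5, and up to 1.00 in the joint fit of both tissues. Il1rl1 in lung ranged from 0.03 when blocked on the slide row to 1.30 with the next brightest probe. Scaling moved the median of all adipose probes from -0.15 to 0.14 with the array median and to 0.03 with quantile normalization, so adipose differences of that size have no settled sign. Of the called pathway genes, limma gave Jak3 an adjusted p of 0.0726 and Socs3 of 0.0704 with the array median, and 0.0715 and 0.0543 with scaling to Gapdh and Hprt1. The methods' t-test gave Socs3 an adjusted p of 0.0569.

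The replicate numbers 1 to 3 are shared by different rats of both groups. Deviations from the group means of same-numbered rats correlated at -0.06, -0.08 and 0.05 in lung and, for adipose tissue, at 0.59, 0.14 and 0.10. Same-numbered rats thus shared little deviation in lung, which cannot show whether they were handled together. In adipose tissue number 1 marks the 2 samples with the highest epididymis genes. With the replicate block 0 members were called in either tissue, the Il33 difference in lung was 0.46 (limma adjusted p = 0.343), and Chi3l1, Socs3 and Jak3 differed by 1.25, 1.00 and 0.67, each with an adjusted p of 0.310. When each rat was left out in turn, 0 members were called in each of the 3 comparisons. The probes of Il13 and Il13ra2 in lung, and of Il4, Il13 and Retnla in adipose tissue, were near background, which limits what their differences can show. So were both Il1rl1 probes in part of the adipose samples, and the NM_013037 probe in a control lung. Il4 in lung was marked well above background in every rat, but its signals were low.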
